A study of Mus musculus with 12 samples.

Results

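*Ptprd*, *Ptprs* and *Ptprf* encode the LAR receptor-type tyrosine phosphatases PTPδ, PTPσ and LAR, and *Il1rapl1* and *Il1rapl2* encode the interleukin-1 receptor accessory protein-like proteins, of which IL1RAPL1 is a postsynaptic partner of PTPδ. The members described here were the SLM2 eCLIP peaks of mouse brain whose centre lay within the mm10 span (GENCODE vM21) and on the strand of 1 of these 5 genes. They numbered 112 of the 2057 peaks in whole brain (5.44%, exact binomial 95% interval 4.50 to 6.51) and 0 of the 178 peaks in hippocampus. *Ptprd* held 87 of the 112 peaks and *Il1rapl1* held 25, whereas *Ptprs*, *Ptprf* and *Il1rapl2* held none.

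SLM2 (*Khdrbs3*) is a STAR-family RNA-binding protein of neuronal nuclei that regulates alternative splicing. RNA crosslinked to it was recovered by enhanced crosslinking and immunoprecipitation (eCLIP) and set against a size-matched input, RNA of the same size range taken without immunoprecipitation. The series comprised 12 libraries. Whole brain of wild-type mice gave 2 eCLIP and 2 input libraries, hippocampus of wild-type mice gave 2 and 2, and hippocampus of *Slm2* KO mice gave 2 and 2. The KO libraries enter no peak list used here and were not analysed here. All mice were 30 days old, wild-type animals were on a C57BL/6J background, and the frozen tissue powder was exposed 3 times to 400 mJ/cm2 of ultraviolet light. A whole-brain lysate came from 1 brain and a hippocampal lysate from pooled hippocampi of more than 1 animal. Each tissue's pair of replicates was deposited as a single merged list, so no value below has a spread between replicates, and the intervals cover counting error only. The read depth of the libraries is not part of the peak lists and was not analysed here.

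LAR receptor phosphatases sit on the axonal side of the synapse, where their immunoglobulin and fibronectin domains bind postsynaptic adhesion proteins and their cytoplasmic domains recruit liprins and other active-zone proteins. Short alternative exons, known as mini-exons, insert a few residues into or between the immunoglobulin domains and determine which postsynaptic partners bind, IL1RAPL1 among them. IL1RAPL1 organizes excitatory synapses from the dendritic side, and its human ortholog is a gene of X-linked intellectual disability. SLM2, like its relative SAM68, recognizes short adenine- and uracil-rich motifs such as UWAA, where W is A or U.

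The peaks themselves were short stretches of adenine- and uracil-rich intron. Shown first are the most strongly enriched peak of each gene and the peak of each gene with the most UWAA starts, with sequence from the GRCm38 (mm10) assembly on the minus strand, from which both genes are transcribed, written 5′ to 3′ as DNA and with every UWAA in capitals.
Ptprd highest: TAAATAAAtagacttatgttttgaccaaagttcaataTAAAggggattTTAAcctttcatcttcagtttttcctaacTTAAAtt
Ptprd most UWAA: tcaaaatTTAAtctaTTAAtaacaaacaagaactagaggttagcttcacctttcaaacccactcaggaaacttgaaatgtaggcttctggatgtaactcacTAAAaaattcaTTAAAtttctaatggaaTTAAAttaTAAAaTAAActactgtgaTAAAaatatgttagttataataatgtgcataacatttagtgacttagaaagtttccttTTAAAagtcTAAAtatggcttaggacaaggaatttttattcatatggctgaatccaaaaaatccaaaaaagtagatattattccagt
Il1rapl1 highest: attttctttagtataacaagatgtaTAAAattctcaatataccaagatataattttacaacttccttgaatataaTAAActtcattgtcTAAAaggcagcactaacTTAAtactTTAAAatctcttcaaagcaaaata
Il1rapl1 most UWAA: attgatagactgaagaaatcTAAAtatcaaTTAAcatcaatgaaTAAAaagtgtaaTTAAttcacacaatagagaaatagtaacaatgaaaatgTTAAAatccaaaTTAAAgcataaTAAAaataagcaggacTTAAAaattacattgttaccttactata

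The first *Ptprd* sequence is the whole peak chr4:77913774-77913857, with 6 UWAA starts in 84 nt. The second is the first 300 nt (chr4:77161516-77161815) of a 319-nt peak with 13 UWAA starts, all of them in the part shown. The *Il1rapl1* peak of highest enrichment, chrX:87159683-87159820, held 6 UWAA starts in 138 nt, and chrX:87698232-87698392 held 11 in 161 nt. A run such as TTAAA holds 2 overlapping UWAA, 1 starting at each of its first 2 bases.

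Peaks concentrated on 1 of the 3 phosphatase genes and 1 of the 2 *Il1rapl* genes. *Ptprd* (ENSMUSG00000028399.18, chr4:75941238-78211961, 22 annotated transcripts) had 87 whole-brain peaks, which were 4.23% of the list (interval 3.40 to 5.19) and placed it at rank 2 of all protein-coding genes by peak count. *Il1rapl1* (ENSMUSG00000052372.10, chrX:86740870-88115645, 3 transcripts) had 25, or 1.22% (0.788 to 1.79), at rank 18. For comparison, 1.92% of all 21951 protein-coding genes, 12.4% of those of at least 100 kb and 45.7% of the 230 genes of at least 500 kb held at least 1 whole-brain peak. At least 1 peak was thus found in 2 of the 3 member genes above 500 kb, and in neither *Ptprs* nor *Ptprf*.

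The 3 phosphatase genes differed widely in length. *Ptprd* spans 2271 kb, the third longest protein-coding gene of the annotation, and is 35.4 times as long as *Ptprs* (chr17:56412426-56476483, 64.1 kb) and 27.3 times as long as *Ptprf* (chr4:118208213-118291405, 83.2 kb). Per 100 kb, *Ptprd* had 3.83 whole-brain peaks (exact Poisson 95% interval 3.07 to 4.73), rank 23 of 2492 genes of at least 100 kb. The count of 0 allowed up to 4.68 peaks per 100 kb in *Ptprs* and 3.61 in *Ptprf*, where 3 counts are taken as the limit. Both limits lie within the interval of *Ptprd*, so they do not separate either short paralog, taken alone, from *Ptprd*. The limit of *Ptprf* was below the *Ptprd* value of 3.83, and the short paralogs were not pooled. The introns of the short paralogs also differed in composition. UWAA started at 1.66 of 100 intronic positions in *Ptprd*, against 0.464 in *Ptprs* and 0.458 in *Ptprf*, and adenine plus thymine made up 63.0% of the intronic bases of *Ptprd*, against 45.2% and 46.9%.

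The *Il1rapl* genes gave a different contrast, because they are of similar length and composition. *Il1rapl1* spans 1375 kb and *Il1rapl2* (chrX:137570608-138846946) spans 1276 kb, a ratio of 1.08. UWAA started at 1.81 of 100 intronic positions in *Il1rapl1* and at 1.59 in *Il1rapl2*, and the adenine plus thymine content was 64.5% and 62.7%. *Il1rapl1* had 1.82 whole-brain peaks per 100 kb (1.18 to 2.68), rank 52 of the 2492 genes, whereas 0 peaks in *Il1rapl2* allowed at most 0.235 per 100 kb. The abundance of the transcripts in the lysates was not analysed here, so absent binding and absent RNA cannot be told apart for *Il1rapl2*, *Ptprs* and *Ptprf*. Fewer cells that express a gene and less of its RNA per cell cannot be told apart in a tissue lysate either.

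**Figure D1:**
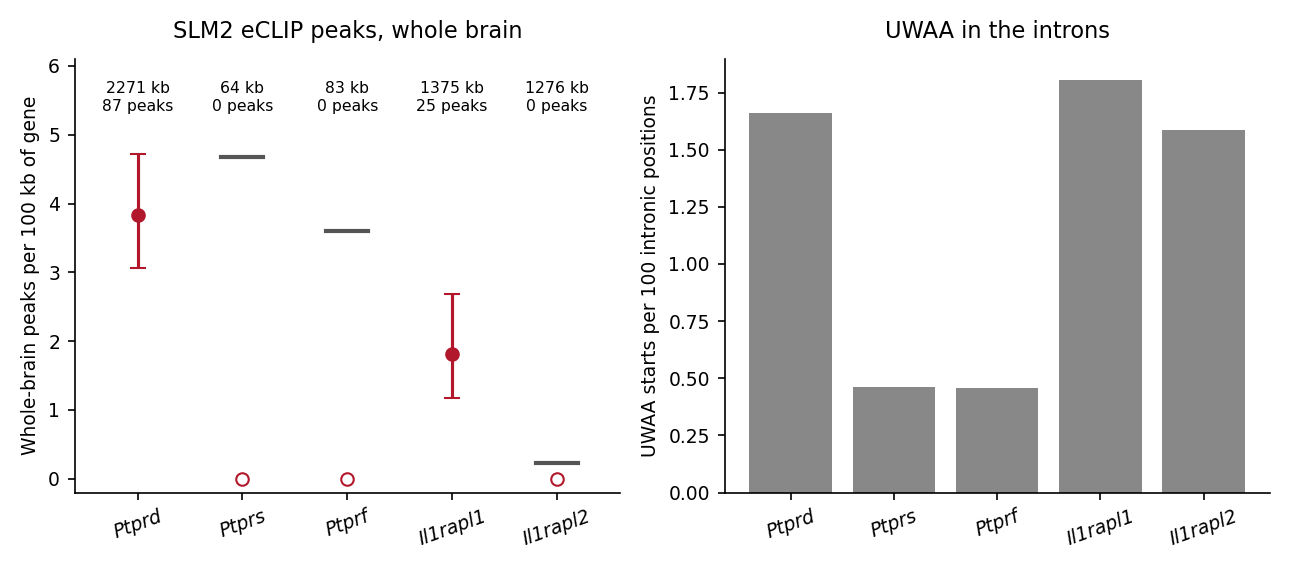
Left, whole-brain SLM2 eCLIP peaks per 100 kb for the 5 genes; filled points with bars are counts above 0 with exact Poisson 95% intervals, open circles are counts of 0, and grey lines mark the limit that a count of 0 allows. Right, UWAA starts per 100 intronic positions on the strand of the gene. *Ptprd* and *Il1rapl1* reached 3.83 and 1.82 peaks per 100 kb, and *Il1rapl2*, with an intronic UWAA density of 1.59, stayed at 0 with a limit of 0.235.

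No hippocampal peak fell in any of the 5 genes. With 178 peaks in that list, a count of 0 allows a share of up to 1.69%, below the 4.23% that *Ptprd* took of the whole-brain list but above the 1.22% of *Il1rapl1*. A two-sided Fisher's exact test over peaks was chosen after the counts had been seen. By this test the *Ptprd* share differed between the whole-brain and hippocampal lists (87 of 2057 against 0 of 178, p = 0.000967, adjusted p = 0.00677 over the 14 Fisher tests run). The *Il1rapl1* share did not pass (25 of 2057 against 0 of 178, adjusted p = 0.513, Fisher's exact test). Peaks of 1 gene are not independent draws, which makes these p-values too small. With 1 merged list per tissue, they compare lists and do not measure variation between animals. The genes were chosen with earlier results of these data known, so the tests are no independent support for a tissue difference. With the 95 hippocampal peaks of −log10 p below 2 against input left out, the *Ptprd* difference was still 4.23 percentage points but no longer passed (87 of 2057 against 0 of 83, adjusted p = 0.221, Fisher's exact test). Among peaks with a log2 fold change of at least 3, with 34 hippocampal peaks left, it was 5.39 points and did not pass either (adjusted p = 0.804, Fisher's exact test). At least 1 hippocampal peak was present in 0.378% of protein-coding genes and in 14.8% of those of at least 500 kb. Tissue, amount of material and size of the peak list differed together, and their parts cannot be told apart. Since no hippocampal peak lay in either gene, none of the 87 *Ptprd* peaks and none of the 25 *Il1rapl1* peaks overlapped one, against 59 of the 1945 other whole-brain peaks (3.03%).

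Within *Ptprd*, the peaks lay almost entirely upstream of the coding exons. The annotation places 1887 kb of introns and non-coding exons before the first coding exon of *Ptprd*, and 86 of the 87 peaks fell there, or 4.56 per 100 kb (3.65 to 5.63). The 380.3 kb between its first and last coding exon held 1 peak, or 0.263 per 100 kb (0.00666 to 1.47), and these intervals do not overlap. That peak, chr4:76229331-76229416, had a log2 fold change of 3.81 over input and lay 14.2 kb from the nearest exon. The intervals treat peaks as independent, although 33 *Ptprd* peaks had a neighbour within 1 kb, and the difference between the regions was not tested. UWAA was as frequent in both regions, with 1.66 starts per 100 intronic positions before the coding exons and 1.66 between them. *Il1rapl1* showed no such division, with 3 peaks in 225.4 kb before the coding exons (1.33 per 100 kb, 0.274 to 3.89) and 22 in 1143 kb between them (1.92 per 100 kb, 1.21 to 2.91).

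Other genes with many peaks rarely had this layout, which depends on how much of a gene precedes its coding exons. Of the 24 protein-coding genes with at least 20 whole-brain peaks, *Ptprd* ranked 2 by the share of peaks before the coding exons, 98.9% for 83.1% of its length. *Rbfox3*, the gene of the neuronal marker NeuN, had 100% of its peaks in a region that makes up 94.4% of its length, and *Syt1*, the synaptic vesicle calcium sensor, had 89.1% in 62.3%. The median over the 22 other genes was 0% of peaks in 0.398% of the length.

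Individual introns of *Ptprd* differed widely in peak number. In the annotated transcript of longest span, Ptprd-205, a processed transcript of 15 exons, intron 1 (286 kb) held 26 peaks and intron 2 (293 kb) held 23, or 9.09 and 7.85 per 100 kb. Introns 7, 9 and 10 followed with 10, 8 and 9 peaks, or 4.70, 4.67 and 3.35 per 100 kb, then introns 8 and 4 with 6 and 4 peaks, and intron 13 with 1. Introns 3, 5, 6 and 11, of 83.8, 34.7, 141 and 78.3 kb, held none. UWAA started at 1.54, 1.78, 1.66 and 1.59 of 100 positions in introns 3, 5, 6 and 11, against 1.73 and 1.80 in introns 1 and 2. The other introns with peaks ranged from 1.58 in intron 10 to 1.69 in intron 13. Intron 3 had the lowest value of the *Ptprd* introns of at least 30 kb. A link between UWAA density and peak number was not tested. The limits that the counts of 0 allow in single introns were not calculated, and they are widest for the short intron 5. Placed on the transcript with the longest coding sequence, Ptprd-206, which starts closer to the coding exons, 1 of the 87 peaks was in an intron and the others lay upstream of the transcript.

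In *Il1rapl1* a single intron carried most of the signal. Intron 2 of the coding transcript Il1rapl1-203 (470.9 kb, chrX:87419303-87890153) held 20 of the 25 peaks, or 4.25 per 100 kb. Intron 1 held 3 peaks (1.33 per 100 kb), and introns 5 and 6, of 253.8 and 258.8 kb, held 1 peak each (0.394 and 0.386 per 100 kb). UWAA density ranged only between 1.72 and 1.88 per 100 positions over these 4 introns, with the highest value in intron 2.

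**Figure D2:**
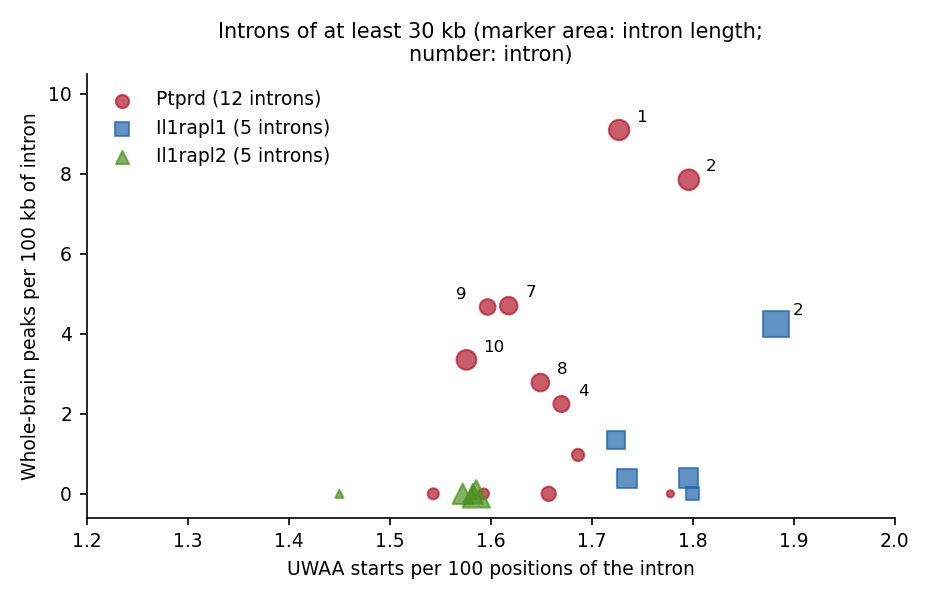
Whole-brain peaks per 100 kb of intron against UWAA starts per 100 positions of the same intron, for the 12 *Ptprd*, 5 *Il1rapl1* and 5 *Il1rapl2* introns of at least 30 kb in the transcript of longest span; marker area is proportional to intron length. *Ptprd* introns 1 and 2 stand at 9.09 and 7.85 peaks per 100 kb and *Il1rapl1* intron 2 at 4.25, while introns of the same genes with UWAA densities between 1.54 and 1.80 held no peak.

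Along both genes most peaks lay before the midpoint, 62 of 87 in *Ptprd* and 23 of 25 in *Il1rapl1*. In *Ptprd*, 44 of the 87 peaks (50.6%) lay in the first 400 kb, which is 17.6% of the gene, and 100-kb bins held up to 15 peaks, with 6 of the 23 bins empty. In *Il1rapl1*, 22 of the 25 peaks (88.0%) lay in the first 500 kb, or 36.4% of the gene, with up to 8 peaks per bin and 7 of the 14 bins empty. The first 400 kb of *Il1rapl1* held 14 peaks (56.0%) in 29.1% of the gene, and the first 500 kb of *Ptprd* held 46 (52.9%) in 22.0%. The *Il1rapl1* peaks were densest at 300 to 400 kb and 400 to 500 kb, with 8 in each bin, whereas its first 100 kb held 3. The median peak stood at 17.6% of the gene length in *Ptprd* and at 27.0% in *Il1rapl1*, against a median of 32.7% over the 22 other genes with at least 20 peaks, 16 of which also had their median peak in the 5′ part before the midpoint. The median spacing between successive peaks was 4.39 kb in *Ptprd* and 7.32 kb in *Il1rapl1*, and 33 and 9 peaks had a neighbour within 1 kb. When peaks with at most 50 nt between them were counted as 1 site, 83 and 24 sites remained.

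**Figure D3:**
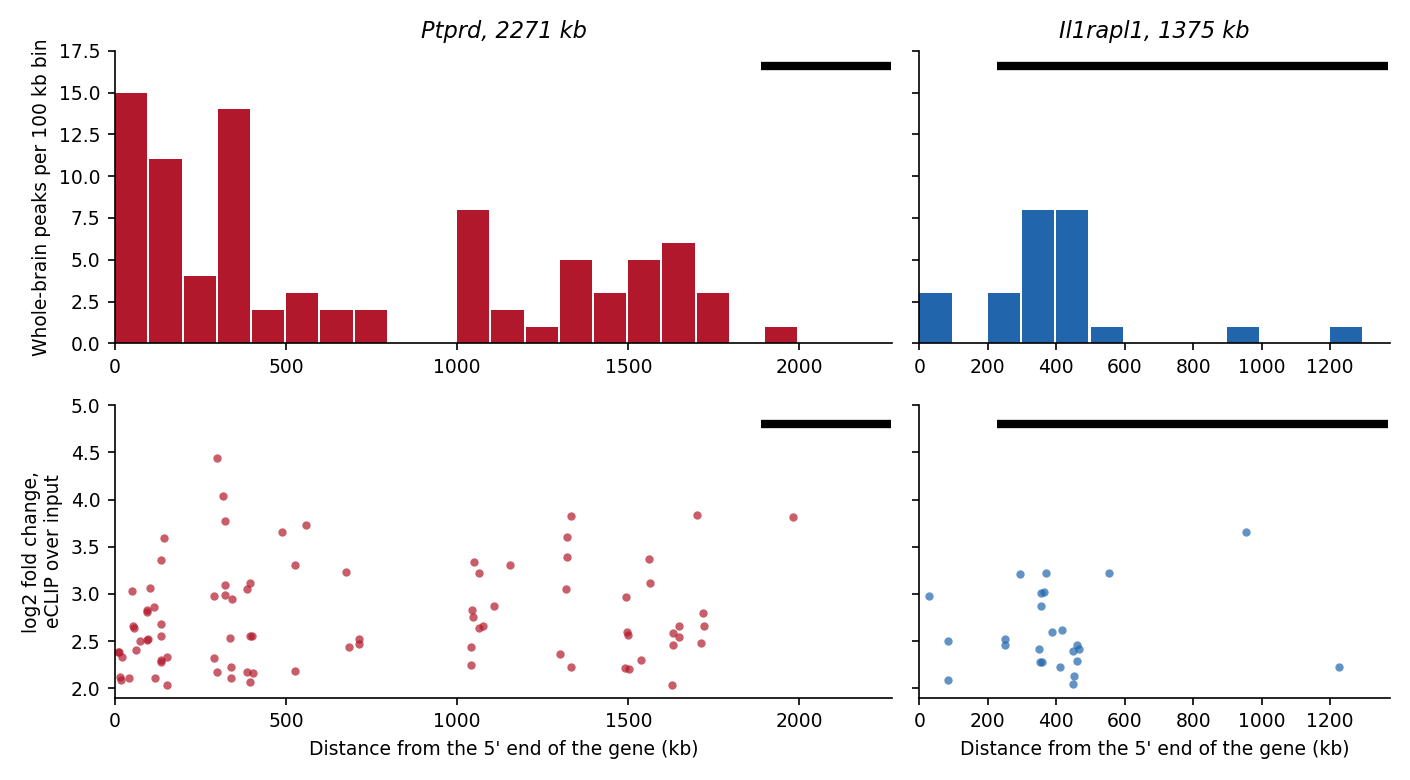
Top, number of whole-brain peaks in 100-kb bins from the 5′ end of *Ptprd* (left) and *Il1rapl1* (right), the last bin of each gene being shorter; bottom, log2 fold change of eCLIP over input of each peak at its distance from the 5′ end. The black bar spans the first to the last coding exon. In *Ptprd* 86 of 87 peaks lie left of the bar, and in *Il1rapl1* 22 of 25 lie in the first 500 kb.

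No peak lay near the short coding exons of *Ptprd*, the length class of its mini-exons. GENCODE vM21 annotates 6 short coding exons of at most 30 nt within *Ptprd*, of 9, 12, 12, 15, 18 and 27 nt, of which the 12-nt and the 15-nt exon at chr4:76054589 share their first coordinate. The nearest peak was 90.0 kb from the closest of them (chr4:76139294-76139302, 9 nt) and 175 kb from the farthest. More generally, no peak of *Ptprd* or *Il1rapl1* lay within 500 nt of any exon, nor within 1000 nt, whereas 225 of the 1945 other whole-brain peaks (11.6%) lay within 500 nt of an exon of their gene. The median distance to the nearest exon was 51.2 kb in *Ptprd* and 132 kb in *Il1rapl1*, against 20.0 kb for the other peaks. Those other peaks include peaks of shorter genes, and these distances were not compared with long genes alone. The shortest distance in *Il1rapl1* was 24.3 kb. In *Ptprd* it was 1433 nt, for the peak chr4:77923693-77923780, with a log2 fold change of 2.32, which is shown because no member lay closer to an exon and was chosen after its values had been seen.
Ptprd nearest exon: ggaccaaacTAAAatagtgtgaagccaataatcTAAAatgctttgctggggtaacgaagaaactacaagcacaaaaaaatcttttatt

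Enrichment over input was similar in both genes and in the other peaks. The median log2 fold change was 2.59 in *Ptprd* (2.03 to 4.44), 2.46 in *Il1rapl1* (2.05 to 3.66) and 2.55 in the 1945 other whole-brain peaks, where 2 was the lower limit of the list. A log2 fold change of at least 3 was reached by 25 of 87 *Ptprd* peaks (28.7%) and 6 of 25 *Il1rapl1* peaks (24.0%), against 433 of 1945 other peaks (22.3%) and 22.6% of the whole list. The difference from the other peaks passed for neither gene (6.47 and 1.74 percentage points, adjusted p = 0.440 and 1, Fisher's exact test), and the difference between the genes did not pass either (4.74 percentage points, adjusted p = 1).

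The most strongly enriched *Ptprd* peaks lay in introns 2 and 10. The peak in the first printed sequence, in intron 2, had a log2 fold change of 4.44, or 21.7-fold over input, with a −log10 p of 8.33. A second peak of intron 2, chr4:77896195-77896314, reached 4.04 with a −log10 p of 11.5, and chr4:76512269-76512327 in intron 10, 1700 kb from the 5′ end, reached 3.84. UWAA started 9 times within 50 nt of the centre of the first of these peaks, 3 times in the second and 6 times in the third. In *Il1rapl1* the highest value, 3.66 (12.6-fold), belonged to the single peak of intron 5, 956 kb from the 5′ end and far from the crowded part of the gene. The next were chrX:87562907-87563024 at 3.23 and chrX:87745017-87745097 at 3.22, both in intron 2. These held 9 and 2 UWAA starts near their centres, and in the second UWAA was sparser than in its flanks (2.04 against 3.57 per 100 positions).

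Nearly every peak of both genes contained the motif. UWAA started within 50 nt of the peak centre in 85 of 87 *Ptprd* peaks (97.7%, 91.9 to 99.7) and in 25 of 25 *Il1rapl1* peaks (100%, 86.3 to 100), against 1609 of 1945 other peaks (82.7%, 81.0 to 84.4). The motif is common in these introns: 69.0% of all 101-nt intronic windows of *Ptprd* held it, as did 70.4% in *Il1rapl1* and 67.1% in *Il1rapl2*, and 129 of 174 flanking windows of the *Ptprd* peaks (74.1%) and 38 of 50 of *Il1rapl1* (76.0%). The *Ptprd* share was 15.0 percentage points above the other peaks (p = 2.57e-05, adjusted p = 0.000359, Fisher's exact test). *Il1rapl1* was 17.3 points above (p = 0.0144, adjusted p = 0.0670, Fisher's exact test), which did not pass. The *Ptprd* difference depended on the comparison: against the 1062 peaks in other protein-coding genes of at least 500 kb, 92.7% of which held UWAA, it was 4.95 points and did not pass (adjusted p = 0.440, Fisher's exact test). The longer motif UUWAAAA was found near 17 *Ptprd* peaks (19.5%) and 6 *Il1rapl1* peaks (24.0%), against 366 other peaks (18.8%).

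Only 2 member peaks, both in *Ptprd*, lacked UWAA within 50 nt of their centre. The more enriched one, chr4:76717250-76717352 in intron 9, had a log2 fold change of 2.97, and 86.1% of its window was soft-masked in the RefSeq assembly, where repeats are given in lower case. Its window was 49.5% adenine plus thymine, against a mean of 68.4% over the *Ptprd* peaks. It is shown as the counterexample and was chosen after its values had been seen.
Ptprd without UWAA: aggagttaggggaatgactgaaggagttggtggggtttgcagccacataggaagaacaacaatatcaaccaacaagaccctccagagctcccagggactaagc
The other, chr4:77498123-77498218 in intron 4, had a log2 fold change of 2.47 and 61.4% adenine plus thymine, and UWAA started at 5.61 of 100 positions in its flanks.

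The density of UWAA was higher at the peak centres than in the flanks of both genes. Within 50 nt of the centre UWAA started at 4.19 of 100 positions in *Ptprd* (SD 2.43 over 87 peaks), against 2.03 in the flanks 450 to 550 nt away on either side (SD 1.47). Of the 87 peaks, 61 exceeded their own flanks, 22 were below them and 4 were equal. In *Il1rapl1* the density was 5.39 at the peaks (SD 2.33 over 25 peaks), against 2.20 in the flanks (SD 1.21), with 19 peaks above, 4 below and 2 equal. The other whole-brain peaks had 3.54 at the peaks and 1.79 in the flanks. At least 4 UWAA starts were present near 20 of 25 *Il1rapl1* peaks (80.0%) and 43 of 87 *Ptprd* peaks (49.4%), against 48.0% of the other peaks. These densities are descriptions without a test.

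The same windows were richer in adenine and thymine as a whole. They made up 68.4% of the bases at *Ptprd* peaks, against 64.8% in their flanks, and 71.7% at *Il1rapl1* peaks, against 66.4%. UWAA read on the opposite strand, which is not the strand of the RNA, was also denser at the peaks, at 3.08 per 100 positions in *Ptprd*, against 1.99 in the flanks, and at 3.88 in *Il1rapl1*, against 2.10. The difference between peak and flank was therefore 2.15 on the strand of the gene and 1.09 on the opposite strand in *Ptprd*, and 3.18 and 1.78 in *Il1rapl1*. UUAA is its own reverse complement, so each UUAA counts on both strands. Part of the rise on the opposite strand is thus the same sequence counted again, and its size was not determined. In 50-nt steps, the density on the strand of the gene was highest just upstream of the centre in both genes, at 4.69 in *Ptprd* and 5.76 in *Il1rapl1*. In *Ptprd* the step 51 to 100 nt upstream was nearly as dense, at 4.37, whereas in *Il1rapl1* the step just downstream of the centre came next, at 4.88.

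**Figure D4:**
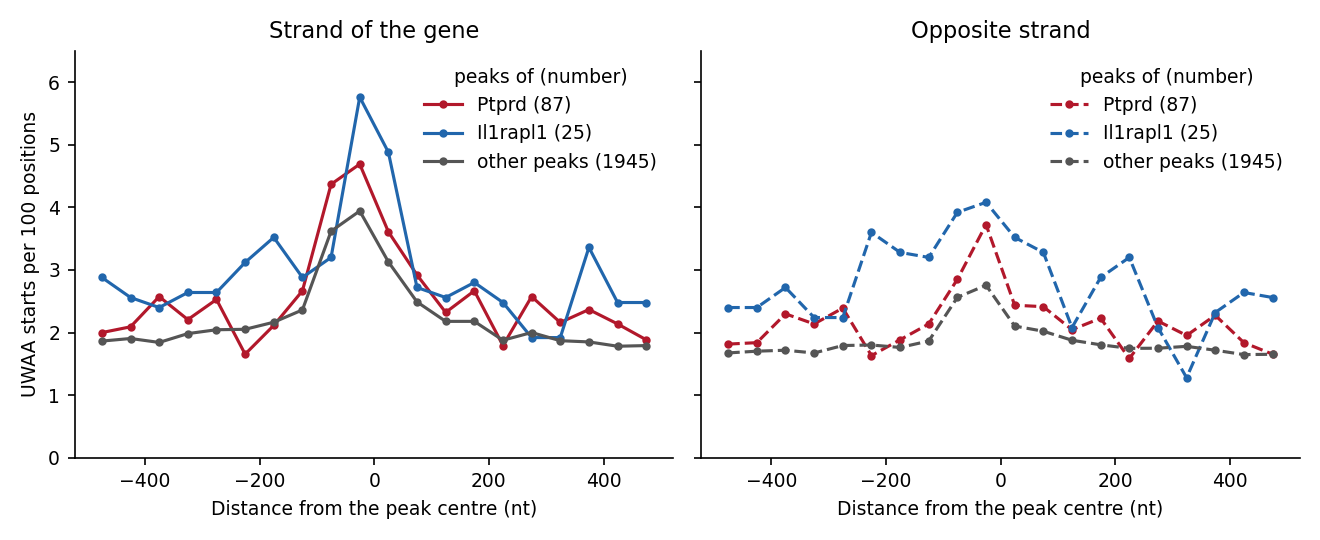
UWAA starts per 100 positions in 50-nt steps around the peak centre, negative distances being upstream, on the strand of the gene (left) and on the opposite strand (right), for the peaks of *Ptprd* (87), of *Il1rapl1* (25) and for the other whole-brain peaks (1945). The maximum lies in the step just upstream of the centre in all 3 sets and is lower on the opposite strand (3.72 in *Ptprd*, 4.08 in *Il1rapl1*). UUAA, its own reverse complement, counts on both strands.

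More strongly enriched peaks of *Ptprd* held more UWAA. The 25 peaks with a log2 fold change of at least 3 had a mean of 5.02 UWAA starts per 100 positions, and the 62 peaks below 3 had 3.85. In *Il1rapl1* the same means were 5.78 over 6 peaks and 5.26 over 19 peaks. These differences were not tested. Windows with more than 20% masked bases made up 51 of 87 *Ptprd* peaks (58.6%) and 13 of 25 *Il1rapl1* peaks (52.0%), against 50.6% of the other peaks, a difference that passed for neither gene (8.03 and 1.41 percentage points, adjusted p = 0.440 and 1, Fisher's exact test). UWAA was denser at the peaks in both classes: it reached 3.97 at the 36 less masked *Ptprd* peaks, against 2.18 in their flanks, and 4.34 at the 51 more masked ones, against 1.93. No member peak contained a stretch of at least 10 nt of the library adaptor sequences, against 20 of the 1945 other peaks (1.03%). The interval of the *Ptprd* share reached 4.15%, so no difference from the other peaks is shown.

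Set beside the other genes with at least 20 whole-brain peaks, *Il1rapl1* had the highest UWAA density at its peaks and the largest difference from the flanks of the 24 genes, as measured within 50 nt of the centre. *Ptprd* ranked 10 by that difference, between *Dlg2* and *Syt1*. These ranks depended on the window: *Il1rapl1* ranked 2 within 25 nt of the centre, 7 within 100 nt and 12 around the 5′ end of the peak, where its difference was 3.38, 1.96 and 2.04, and *Ptprd* ranked 14, 8 and 15. *Adgrb3*, a synaptic adhesion G protein-coupled receptor gene, came next to *Il1rapl1* with 4.67 at 38 peaks and 1.72 in the flanks, a difference of 2.95. *Rbfox3*, with 102 peaks, and the glutamate receptor gene *Grm4*, with 31, had no more UWAA at their peaks than in the flanks.

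**Figure D5:**
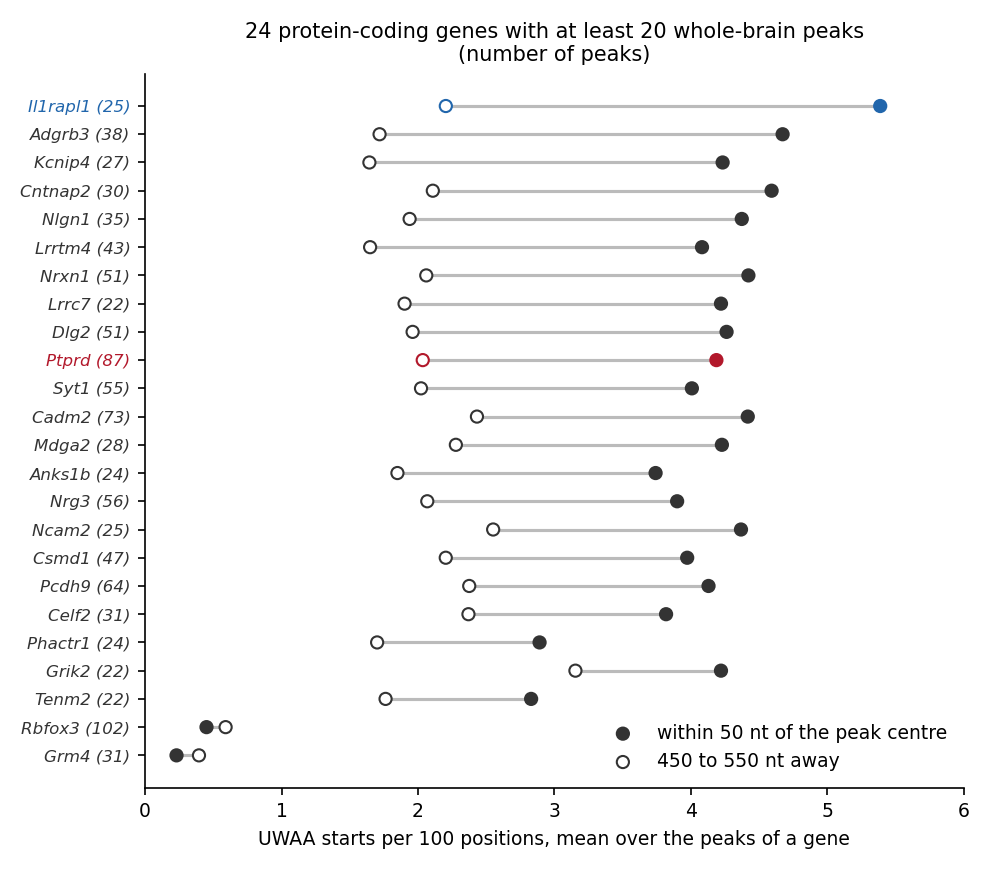
Mean UWAA starts per 100 positions within 50 nt of the peak centre (filled) and 450 to 550 nt away (open) for the 24 protein-coding genes with at least 20 whole-brain peaks, ordered by the difference; numbers in brackets are peaks. *Il1rapl1* (5.39 and 2.20) is at the top, *Ptprd* (4.19 and 2.03) is at rank 10, and *Rbfox3* and *Grm4* are at the bottom.

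Several long genes had a peak density close to that of *Ptprd* or *Il1rapl1*. Among the 230 protein-coding genes of at least 500 kb, the nearest to the *Ptprd* value of 3.83 peaks per 100 kb were *Nlgn1* (3.86, 35 peaks), which encodes the postsynaptic neurexin ligand neuroligin-1, *Mdga2* (3.70, 28 peaks), which encodes an inhibitor of neuroligin binding, and *Fam155a* (3.36, 19 peaks), which encodes a subunit of the NALCN channel complex. Those nearest to the 1.82 of *Il1rapl1* were *Tenm2* (1.79, 22 peaks), the teneurin-2 adhesion receptor, *Kcnq5* (1.95, 11 peaks), a potassium channel, and *Rora* (2.04, 15 peaks), a nuclear receptor. Likeness here rests on 1 merged list and a single number per gene.

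Peaks were also counted in genes for the binding partners and relatives of these receptors. Of the 13 listed postsynaptic ligands of LAR receptor phosphatases, *Il1rapl1* and *Lrfn5* had whole-brain peaks. *Lrfn5*, which encodes the adhesion protein SALM5, had 10 peaks in 335.2 kb (2.98 per 100 kb) with a log2 fold change of up to 4.02 and, unlike the 5 receptor genes, 1 hippocampal peak at 2.61. The UWAA density at its peaks was 4.59, against 1.89 in the flanks. The remaining 11 ligand genes had none, including *Ntrk3* (TrkC), 562.1 kb long, and the 6 *Slitrk* genes, each at most 12.1 kb long.

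None of the 11 heparan sulfate proteoglycan genes, whose products include ligands of PTPσ, had a peak in either tissue, although *Gpc5* and *Gpc6* span 1433 and 1051 kb. The 9 genes for cytoplasmic partners of the phosphatases, among them the liprin-α genes and *Trio*, also had none. Of 4 genes for cytoplasmic partners of IL1RAPL1, *Mcf2l* had 1 whole-brain peak (3.05, with no UWAA in its window), and *Dlg4*, which encodes PSD-95, had 1 hippocampal peak (2.09). Among 18 other receptor-type tyrosine phosphatase genes, *Ptprg* and *Ptprn2* had 1 peak each (2.69 and 3.34) in 688.5 and 791.1 kb, and *Ptprt*, 1139 kb long, had none. The 8 other interleukin-1 receptor family genes had none.

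Counting each gene once, 4 of these 60 further genes held a whole-brain peak (6.67%, against 1.92% of all protein-coding genes), as did 4 of the 28 of at least 100 kb (14.3%, against 12.4% of all such genes) and 2 of the 8 of at least 500 kb (25.0%, against 45.7%). Among marker genes of cell types, 3 of 4 neuronal genes held whole-brain peaks and the oligodendrocyte gene *Mbp* held 13. The 12 marker genes of astrocytes, microglia and endothelium held none. The lists hold bound RNA and not expression, so these counts do not check the tissue. The neuronal markers were also longer, with a median of 344.6 kb, against 49.1, 39.1 and 69.6 kb for astrocytes, microglia and endothelium.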

How the data were processed

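Per the labels, eCLIP and input reads were processed by the authors with cutadapt 3.4 (adaptor trimming), STAR 2.7.9 (alignment, mm10) and UMI-tools 1.1.1 (removal of duplicate reads). They called peaks with CLIPper against the size-matched input and merged the 2 replicates of a tissue by the irreproducible discovery rate (IDR). The deposited peak lists give, for each peak, the log2 fold change over input, the −log10 p against input and the −log10 IDR, a reproducibility score. They carry no header, so these meanings were taken from the column names of the study's supplement. All listed values of the log2 fold change and −log10 IDR were 2 or more, so weaker binding is not in the lists. Whether adjacent peaks are separate binding events cannot be told from a merged list.

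Peak starts were read as counted from 0 and are given from 1. Peaks were assigned to GENCODE vM21 genes by centre and strand. UWAA starts were counted in GRCm38 sequence within 50 nt of the peak centre and 450 to 550 nt away, as starts per 100 positions. Shares of peaks were compared by two-sided Fisher's exact tests (scipy 1.17.1) with Benjamini-Hochberg adjustment over 14 tests and a threshold of 0.05. All of these tests treat the peaks of 1 gene as independent draws, which they are not. The 14 include 3 of the overlap with hippocampal peaks, whose outcome the absence of such peaks in the genes already fixed and which are not reported. Shares have exact Clopper-Pearson and counts exact Poisson 95% intervals. The counting and the tests were tested on simulated data. The 5 genes, the 6 lists of related genes and 5 lists of cell type markers were chosen with earlier results of these data known. Named peaks were the 3 of highest log2 fold change per gene, every hippocampal peak and every peak within 500 nt of an exon. Printed peaks were the highest and the most UWAA-rich of each gene, and others are marked where they appear. The genes most like a member were the 3 nearest in peaks per 100 kb among those of at least 500 kb, and up to 4 genes of each related list were named by peak count, with long genes without a peak added after their values were seen. The comparison of positions along genes and the other genes with at least 20 peaks were also chosen after seeing the data.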

Additional observations from a re-analysis of the deposited data

How the results depend on the processing

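Of 151 alternative values, 129 stayed on the same side of the threshold or, where there was no test, moved by less than the counting error, or by at most 1.5 times for counts. Some of the 129 could not have moved, so their number is no measure of stability. A count of 0 peaks cannot rise under a stricter limit, and *Ptprd* against *Il1rapl1* does not involve the other peaks. No called difference reversed, but 5 differences in share that had not passed changed sign. Stricter limits lowered the whole-brain counts to 25 peaks in *Ptprd* and 6 in *Il1rapl1* once a log2 fold change of 3 or more was required, and to 14 and 3 with a −log10 IDR of 3 or more. Placed on the transcript with the longest coding sequence, 1 *Ptprd* peak lay in an intron, because that transcript starts downstream of the others. The UWAA difference between peak and flank was 3.22 per 100 positions over the *Ptprd* peaks with a log2 fold change of at least 3. In *Il1rapl1* it was 1.96 within 100 nt of the centre, 2.04 around the 5′ end of the peak and 2.24 over the 10 peaks with at most 20% masked bases both at the peak and in at least 1 flank, and the cause was not tested. The share of *Il1rapl1* peaks with UWAA passed when the peak itself was searched (18.9 points above the other peaks, adjusted p = 0.0398, Fisher's exact test).

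Over the other windows, flanks and masks tried, the rank of *Il1rapl1* by this difference among 24 genes lay between 1 and 12 and that of *Ptprd* between 4 and 15; these rankings were chosen after seeing the data. Other alternatives chosen after seeing the data removed 2 calls of *Ptprd*. Its share with UWAA was 4.95 points above peaks of other genes of at least 500 kb (adjusted p = 0.440, Fisher's exact test). Its share of the whole-brain list was 4.23 points above hippocampus without peaks of low −log10 p (adjusted p = 0.221, Fisher's exact test) and 5.39 points above among peaks with a log2 fold change of 3 or more (adjusted p = 0.804), where 83 and 34 hippocampal peaks were left.

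No paired analysis was possible because the 2 replicates of each tissue are merged into 1 list and the peaks carry no replicate number. For the same reason neither replicate was left out in turn. With 178 peaks, the hippocampal list shows nothing about shares of up to 1.69%.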
